A study of Sus scrofa with 9 samples.

Results

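MUL1, also known as MULAN or MAPL, is a ubiquitin ligase that sits in the outer mitochondrial membrane with its catalytic RING domain facing the cytosol, and it can also attach the small modifier SUMO. In cell and mouse studies it has been described as tagging the fusion protein mitofusin 2 and the kinase AKT for degradation, as acting on the fission protein DRP1, and as taking part in the removal of damaged mitochondria beside the kinase PINK1. In mouse skeletal muscle it has been linked to the loss of mitochondria that goes with muscle wasting, downstream of FOXO transcription factors. Its transcript was followed here in longissimus dorsi, the long back muscle, of Bama minipigs, a small Chinese breed used as a model of obesity.

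MUL1 was 1 of 3194 genes that the array's accessions named, and it was represented by 1 probe, A_72_P385128, out of 43603. It was singled out because its diet difference was the largest of any named gene on these same arrays, so its levels are given as a description and without a test. The accession XM_003356176 ties the probe to MUL1 on the 7 arrays of slides 2 and 3. On the 2 arrays of slide 1, which carry an older annotation, the same probe at the same spot (row 359, column 6) bears the cluster name TC491540 instead. With 1 probe there is no second measurement of the transcript, and the array files do not say which exon the probe matches.

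The HFHSD group was 6 minipigs that received a diet of 53% basal feed, 37% sucrose and 10% lard, and the CD group was 3 minipigs on standard chow. Feeding began at 6 months of age and lasted 23 months in both groups, and all animals were gonadally intact and fed on a restricted schedule. Both sexes were used, and which animals were male is not stated. The design text counts 3 CD animals and the growth protocol 6, and 3 CD arrays were analysed here. RNA of whole muscle was labelled with Cy3 and hybridised to an Agilent porcine array, 1 array per animal.

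The arrays lay on 3 slides. HFHSD 5 and HFHSD 6 were on slide 1. HFHSD 1, HFHSD 3 and HFHSD 4 shared slide 2 with CD 1. HFHSD 2 shared slide 3 with CD 2 and CD 3. Between 51.2% and 68.9% of probes were well above background on the arrays other than CD 1, where the share was 36.8%. The lowest processed signal called well above background was 32.8 on CD 1 and 7.80 to 14.7 on the other arrays. A dim probe could thus fail that call on CD 1 at a signal that would pass elsewhere. All 20 measured skeletal muscle markers were well above background on every array, among them ACTA1, the actin of skeletal muscle, at a mean level of 10.9 in HFHSD and 11.1 in CD. Levels throughout are log2 of the processed signal relative to the array's 75th percentile, so that 0 is the 75th percentile of that array, and differences are HFHSD minus CD.

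The MUL1 probe was dim in every HFHSD muscle and bright in every CD muscle. Its processed signal was 36.4 intensity units on HFHSD 1, 74.7 on HFHSD 2, 59.5 on HFHSD 3, 63.5 on HFHSD 4, 97.3 on HFHSD 5 and 77.6 on HFHSD 6, against 1115 on CD 1, 1184 on CD 2 and 2112 on CD 3. The scanner software put the error of a spot at 10.0% to 12.8% of its signal. The groups did not overlap, and the brightest HFHSD array, HFHSD 5, was far below the dimmest CD array, CD 1.

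Relative to the 75th percentile of each array, the level of MUL1 was -2.24 on HFHSD 1, -1.44 on HFHSD 2, -1.48 on HFHSD 3, -1.42 on HFHSD 4, -1.28 on HFHSD 5 and -1.92 on HFHSD 6, against 3.06 on CD 1, 2.41 on CD 2 and 3.37 on CD 3. The mean was -1.63 ± 0.37 (SD, n = 6) in HFHSD and 2.95 ± 0.49 (SD, n = 3) in CD, a log2 difference of -4.58, which puts CD 23.9-fold above HFHSD. The gap of 3.69 between the highest HFHSD array and the lowest CD array was several times the range within either group, which was 0.956 in HFHSD and 0.960 in CD. The level of the probe thus varied within each diet by less than 1 log2 unit, and no animal lay between the groups.

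**Figure D1:**
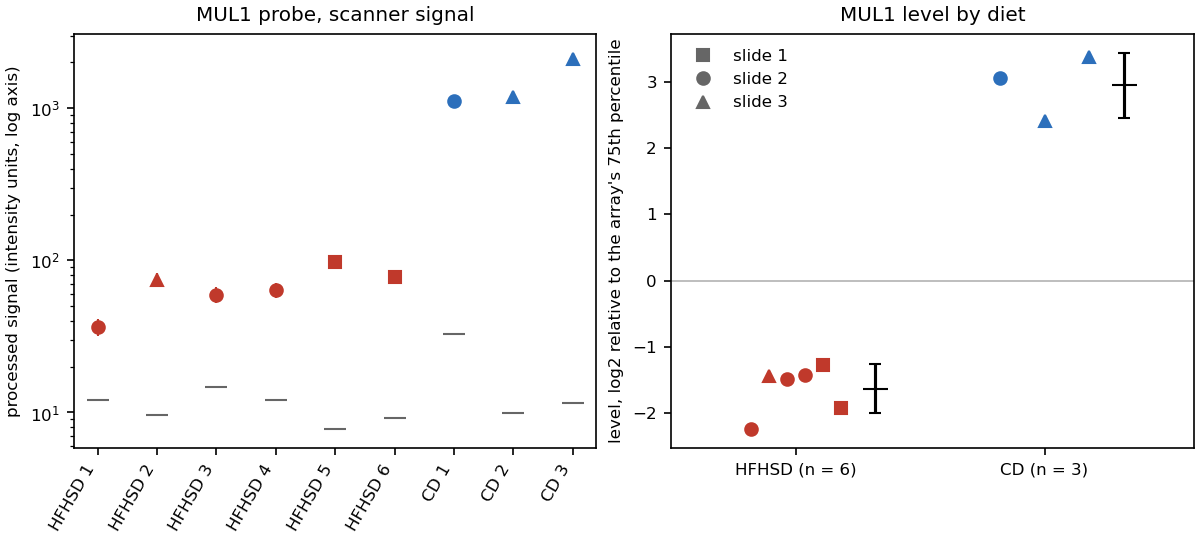
MUL1 signal by array. Left, processed signal in intensity units on a log axis for each array, with the scanner's own error as a bar and a grey dash at the lowest signal that was well above background on that array. Right, level in log2 relative to the array's 75th percentile, with mean and SD beside the points (n = 6 HFHSD, n = 3 CD) and slides as symbols. All 6 HFHSD arrays lie between -2.24 and -1.28, and all 3 CD arrays between 2.41 and 3.37.

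The low signals of the spot in HFHSD muscle lay above background, so as signals they were measured and not merely bounded. The scanner software called the spot well above background on every array, 6 of HFHSD and 3 of CD, and it was neither saturated nor marked as an outlier on any of them. Before background subtraction its median pixel signal was between 79.5 and 134.5 in HFHSD and between 1001 and 2013 in CD. That was 1.73 to 3.74 times the median of the negative control spots in HFHSD and 19.3 to 41.9 times in CD. Local background beside the spot was 29 to 34 in HFHSD and 33 to 38 in CD, so the groups overlapped at 33 to 34. A share of the dim signal that came from other transcripts binding the probe cannot be told from MUL1 itself with a single probe.

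In rank order, MUL1 was just above the middle of all probes in HFHSD and among the brighter ones in CD. It was brighter than 57.5% to 64.5% of probes on the HFHSD arrays and than 88.1% to 91.3% on the CD arrays. These ranks do not depend on how arrays are scaled to each other.

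The 6 spots nearest to the MUL1 spot on the slide surface did not share its pattern. The brightest of them ran from 1016 to 1962 intensity units in HFHSD and from 914 to 1305 in CD. The groups overlapped for each of the 6 spots, and their differences ran from -0.73 to 0.25. Of these, 4 were bright enough to test, and 0 passed in limma (a linear model fitted to all 27925 testable probes, two-sided, adjusted by the Benjamini-Hochberg method, threshold 0.05), with adjusted p between 0.697 and 0.958 and 0 at an unadjusted p under 0.05.

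Differences within the slides that held both diets are given as a description, since MUL1 was picked on these same arrays. They rest on a single array for CD on slide 2 and for HFHSD on slide 3. On slide 2 the difference was -4.78, between HFHSD 1, HFHSD 3 and HFHSD 4 on the HFHSD side and CD 1 on the CD side. On slide 3 it was -4.34, between HFHSD 2 and the pair CD 2 and CD 3. Slide 1 held no CD array, and its HFHSD 5 and HFHSD 6 lay at -1.28 and -1.92, the highest and the second lowest of the HFHSD arrays. With slide as a fixed term the difference was -4.57, and without CD 1, the array with the fewest probes above background, it was -4.52.

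By size of difference MUL1 ranked 6 of 27925 tested probes, both directions counted, so 0.0215% of probes differed by as much. Of all tested probes 1.24% passed in limma, 0.698% higher and 0.541% lower in HFHSD (195 and 151 probes). That balance turned with the filter and the scaling: among probes above background on all 9 arrays 280 were higher and 455 lower, and with normexp correction and quantile normalisation 407 and 446. The 5 probes ahead of it were all lower in HFHSD, had no gene name here, and passed the background call on at most 1 of the 6 HFHSD arrays, so that their low side is a bound. The largest, A_72_P213291, was above background on 0 HFHSD arrays and 3 CD arrays. Among the 15847 probes well above background on all 9 arrays, MUL1 ranked 1, ahead of an unnamed probe, A_72_P381343, at -3.84. Among named genes lower in HFHSD the next was NR4A3, a nuclear receptor induced early by exercise and stress, at -2.97 (SE 0.60), and the largest difference upward was 3.48, for the lipid droplet enzyme gene PNPLA3.

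**Figure D2:**
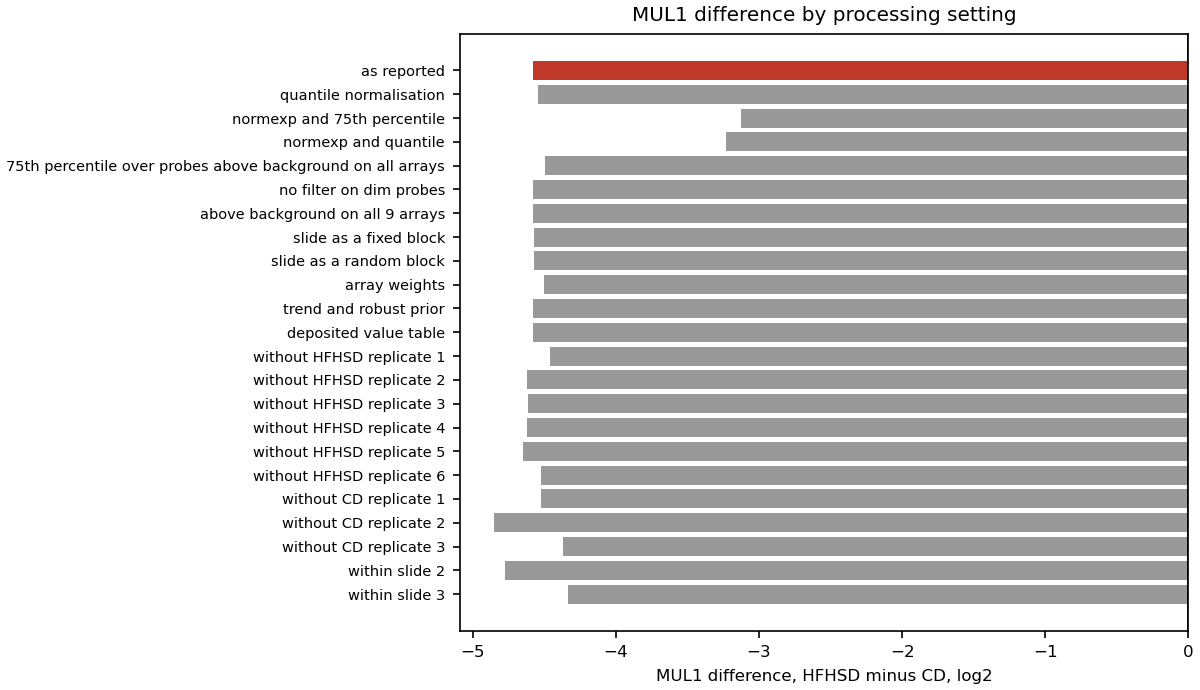
MUL1 difference (HFHSD minus CD, log2) as reported, in red, and under each other processing setting, in grey. Bars start at 0, and all lie below it, from -4.85 without CD 2 to -3.13 with normexp correction and percentile scaling. MUL1 was picked for this difference, so the shared sign is a description only.

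The muscle fibre genes themselves gave a check on tissue content. Of 20 measured skeletal muscle markers 15 were lower in HFHSD and 0 passed (3 at an unadjusted p under 0.05), and the sum of their levels, each as a multiple of the array's 75th percentile, was 13689 to 18069 in HFHSD and 16364 to 21599 in CD. Of 16 measured adipocyte markers 14 were higher in HFHSD, with a median difference of 0.98, and CIDEA, a lipid droplet protein, passed, while 9 had an unadjusted p under 0.05. The groups did not overlap for 6 of the 16, 5 higher and 1 lower. Over all tested genes, each by its brightest probe, 0.995% passed and 18.4% had an unadjusted p under 0.05. The groups did not overlap for 13.1% of all tested genes, 4.13% higher and 8.92% lower. The fat hormone gene ADIPOQ differed by 2.47 (SE 0.71) and the desaturase SCD by 2.43 (SE 0.55), and neither passed. The summed adipocyte level was 489 to 828 in HFHSD and 538 to 840 in CD. GPD1, a metabolic enzyme and the brightest of these markers, had mean levels of 8.75 in HFHSD and 8.99 in CD and weighs most in that sum, and PLIN1, which coats fat droplets, was called above background on 5 arrays of HFHSD and 0 of CD. Of 4 measured smooth muscle and cardiac markers 3 were lower in HFHSD and 0 passed (2 at an unadjusted p under 0.05), with a sum of 541 to 823 in HFHSD and 812 to 1243 in CD. ACTA2, the actin of smooth muscle, had mean levels of 9.36 in HFHSD and 9.90 in CD and makes up most of that sum. Of 9 measured macrophage and leukocyte markers 7 were lower, FCGR3A passed as higher, and their sum was 15.2 to 34.3 in HFHSD and 20.0 to 32.6 in CD. Of 6 measured endothelial markers 3 were higher and 3 lower, summing to 24.6 to 40.9 in HFHSD and 30.8 to 33.5 in CD, and of 6 fibroblast markers 4 were higher and 2 lower, summing to 79.4 to 129.7 in HFHSD and 65.5 to 134.1 in CD. In both lists 0 passed in limma (1 each at an unadjusted p under 0.05). The single measured erythrocyte and plasma marker, ALB, was at 0.398 to 1.66 in HFHSD and 0.0755 to 0.758 in CD. It differed by 1.73 (SE 0.75) and did not pass in limma, at an unadjusted p under 0.05. It was above background on 2 of the 3 CD arrays. The part of cell content in the MUL1 difference was not tested, and in whole muscle fewer cells of a type and less RNA per cell cannot be told apart.

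The other genes of MUL1's pathways were then examined, in 12 lists of 327 genes. Most had no named probe: the array named neither MFN1, MFN2, OPA1, DNM1L nor FIS1, the core proteins of mitochondrial fusion and fission, nor PINK1, AKT2, FOXO1, TRIM63 or ULK1. The 96 genes that could be tested were read against all 2613 tested genes, each by its brightest probe, of which 0.995% passed in limma (13 higher and 13 lower, 0.498% each way). Of the 96, 0 passed in either direction with limma, and 11 had an unadjusted p under 0.05, where 18.4% of all tested genes did. A share of 0 of 96 lies near that background. By difference, 31 were higher and 65 lower, with a median of -0.16 beside -0.086 over all tested genes. With normexp correction and percentile scaling the median of the 96 turned to 0.084, beside -0.053 over all tested genes. The groups did not overlap for 11 of the 96 (4 higher and 7 lower), where the background was 13.1% of all tested genes, 4.13% higher and 8.92% lower.

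Of the mitophagy genes, 6 of 22 were tested, with 1 higher and 5 lower, and 0 passed (1 at an unadjusted p under 0.05). BCL2L13, a mitophagy receptor, differed by -0.50 (SE 0.30), FUNDC2, an outer membrane protein, by -0.30 (SE 0.23), OPTN, an adaptor between ubiquitin and autophagosomes, by -0.15 (SE 0.25), and none passed.

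Only 2 genes of mitochondrial shape and movement were measured, and 0 passed (0 at an unadjusted p under 0.05). MTFR1, a regulator of fission, differed by 0.12 (SE 0.22) and RHOT2, a GTPase of mitochondrial transport, by -0.064 (SE 0.18). The other probe of RHOT2 differed by -1.02 (SE 0.35, limma unadjusted p = 0.015). That probe was above background on 3 HFHSD arrays and 1 CD array. Of 5 tested autophagy genes 3 were higher and 2 lower by the brightest probe, 0 passed, and 0 had an unadjusted p under 0.05. PIK3C3, the lipid kinase that starts autophagosomes, differed by 0.43 (SE 0.20), LAMP2, a lysosomal membrane protein, by -0.54 (SE 0.27), and ATG4D, a protease that processes autophagosome proteins, by -0.26 (SE 0.20). The other probes of PIK3C3 differed by 0.72 (limma unadjusted p = 0.0070), 0.35 and -0.13.

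Of the outer membrane and import list, which holds MUL1's neighbours in the membrane, 21 of 54 genes were tested, 6 higher and 15 lower. In limma 0 passed, and 2 had an unadjusted p under 0.05. VDAC2, a channel of the outer membrane, had levels of 5.28, 5.89 and 6.29 (lowest, median and highest) in HFHSD, against 6.43, 6.48 and 6.56 on the 3 CD arrays. The groups did not overlap, at a difference of -0.63 (SE 0.24, limma adjusted p = 0.228), which was -0.20 with normexp correction and percentile scaling.

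MTX1, a metaxin of the import machinery, had levels of 0.73, 0.88 and 1.21 (lowest, median and highest) in HFHSD, against 1.36, 1.35 and 1.85 on the 3 CD arrays. It differed by -0.58 (SE 0.20, limma adjusted p = 0.170), and its other probe by -0.62. TOMM20, an import receptor, differed by -0.54 (SE 0.28), while VDAC1 and VDAC3, the related channels, differed by -0.062 and 0.039. The largest of these differences was -0.63, beside -4.58 for MUL1, which was chosen as the largest among named genes. Mitochondrial chaperones and proteases had 3 genes tested, all lower, of which 0 passed (1 at an unadjusted p under 0.05): TRAP1 at -0.58 (SE 0.26), HSPD1 at -0.46 (SE 0.26) and HSPE1 at -0.36 (SE 0.20).

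The ubiquitin and SUMO machinery on which MUL1 depends showed small differences. Of 9 tested genes of ubiquitin supply and conjugation 2 were higher and 7 lower, 0 passed and 0 had an unadjusted p under 0.05. The conjugating enzyme UBE2L3 differed by -0.28 (SE 0.19), UBE2J1 by -0.33 (SE 0.26) and the polyubiquitin gene UBB by -0.033 (SE 0.20). Of 20 genes in the SUMO list 2 were tested, 1 higher and 1 lower, and 0 passed (0 at an unadjusted p under 0.05). SUMO2, a form of the modifier, differed by -0.31 (SE 0.29). Of 6 other ubiquitin ligases tested, 2 were higher, 4 were lower, 0 passed and 0 had an unadjusted p under 0.05. FBXO32, the atrophy ligase atrogin-1, had levels of 5.19, 6.11 and 6.91 (lowest, median and highest) in HFHSD, against 6.99, 6.47 and 6.78 on the 3 CD arrays. Its groups overlapped, at a difference of -0.59 (SE 0.34, limma adjusted p = 0.436), which was -0.067 with normexp correction and percentile scaling. RNF5, a membrane-bound ligase, differed by 0.40 (SE 0.24) and XIAP, an inhibitor of apoptosis, by 0.30 (SE 0.24).

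Among proteins linked to MUL1 as targets or partners in signalling, 9 of 22 genes were tested, 4 higher and 5 lower, and 0 passed (3 at an unadjusted p under 0.05). AKT1, a kinase of the insulin pathway, differed by -0.16 (SE 0.20) and HIF1A, the factor of the hypoxia response, by -0.085 (SE 0.45), and HIF1A changed sign, to 0.43, with slide as a fixed term. TAB1, an activator of the kinase TAK1, had levels of 3.30, 3.44 and 3.56 (lowest, median and highest) in HFHSD, against 4.10, 4.12 and 3.80 on the 3 CD arrays. Its groups did not overlap, at a difference of -0.58 (SE 0.16, limma adjusted p = 0.113). That difference was -0.022 with normexp correction and percentile scaling. DDIT3, a factor of the endoplasmic reticulum stress response, differed by -0.83 (SE 0.32, limma adjusted p = 0.235), and by -0.45 without CD 3.

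MUL1 takes part in antiviral signalling at the mitochondrial surface, where 15 of 24 genes were tested, 7 higher and 8 lower, and 0 passed (1 at an unadjusted p under 0.05). TMEM173, which encodes the DNA sensor adaptor STING, had levels of -2.51, -2.11 and -1.81 (lowest, median and highest) in HFHSD, against -3.53, -2.66 and -2.69 on the 3 CD arrays. The difference was 0.81 (SE 0.26, limma adjusted p = 0.149), and 2 of the 3 CD arrays passed the background call. Its sign turned, to -0.077, with normexp correction and percentile scaling. MAVS, the outer membrane adaptor of RNA sensing, differed by 0.42 (SE 0.27) and IRF3, a transcription factor of the interferon response, by -0.36 (SE 0.19).

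Regulators of FOXO activity and muscle atrophy, the setting in which MUL1 was described in mouse muscle, had 18 of 28 genes tested, 4 higher and 14 lower. In limma 0 passed, and 4 had an unadjusted p under 0.05. FOXO3, a transcription factor of atrophy, differed by -0.15 (SE 0.19). MSTN, the gene of myostatin, a secreted brake on muscle growth, had levels of -1.75, -1.11 and -0.45 (lowest, median and highest) in HFHSD, against -2.78, -2.35 and -2.23 on the 3 CD arrays. The groups did not overlap, at a difference of 1.35 (SE 0.32, limma adjusted p = 0.0757), which was 0.37 with normexp correction and percentile scaling. MSTN passed the background call on 2 of the 3 CD arrays.

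KLF15, a factor induced by glucocorticoids, had levels of 2.91, 3.82 and 4.45 (lowest, median and highest) in HFHSD, against 4.75, 4.74 and 5.13 on the 3 CD arrays. It differed by -1.15 (SE 0.37, limma adjusted p = 0.157), by -0.45 within slide 2 and by -1.46 within slide 3. SMAD2, a transducer of myostatin signals, differed by 0.60 (SE 0.21), with 2 of 3 CD arrays above background. Its sign turned, to -0.13, with normexp correction and percentile scaling. PPARGC1A, the coactivator PGC-1alpha of mitochondrial biogenesis, spread from 1.89 to 4.03 in HFHSD and from 2.57 to 5.81 in CD. It differed by -1.47 (SE 0.68, limma adjusted p = 0.321), and by -0.60 without CD 3. The biogenesis list had 6 of 19 genes tested, 2 higher and 4 lower, of which 0 passed and 0 had an unadjusted p under 0.05. The energy sensor subunit PRKAA2 differed by 0.42 (SE 0.22), the mitochondrial deacetylase SIRT3 by -0.35 (SE 0.33) and TFAM, the packaging protein of mitochondrial DNA, by 0.0021 (SE 0.20).

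**Figure D3:**
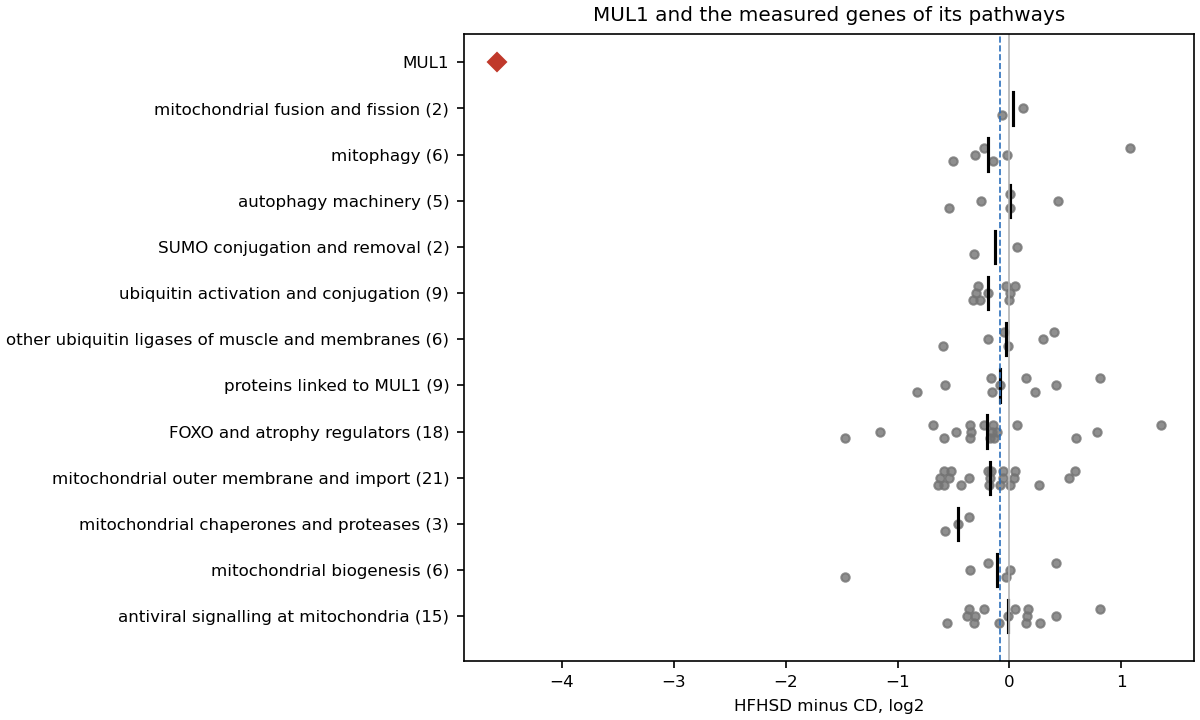
Difference (HFHSD minus CD, log2) of MUL1, as the red diamond, and of each tested gene of the 12 lists, as grey points with the number tested in brackets. Black bars mark list medians and the dashed blue line the median of all tested genes, -0.086; all listed genes lie between -1.47 and 1.35, and MUL1 at -4.58.

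The genes that flank MUL1 on the chromosome, by their order in the RefSeq gene table, offered few measurements. Of the 10 genes on either side, DDOST alone had a named probe, and PINK1, which lies 3 genes from MUL1, had none. DDOST, a subunit of the complex that attaches sugar chains to proteins, had mean levels of 3.34 ± 0.23 (SD, n = 6) in HFHSD and 3.38 ± 0.071 (SD, n = 3) in CD, a difference of -0.046 (SE 0.19, limma adjusted p = 0.939). Its second probe differed by -0.015. The other nearest measured genes were SDHB (-0.46), AKR7A2 (0.052) and CAPZB (-0.027) on one side and LOC100627283 (-0.32) and CDC42 (-0.20) on the other, and 0 of the 6 passed in limma or had an unadjusted p under 0.05. In gene order SDHB, AKR7A2 and CAPZB lay at -43, -22 and -20 from MUL1, and LOC100627283 and CDC42 at 18 and 19. All had smaller differences than MUL1, which was fixed beforehand, since MUL1 was chosen as the largest among named genes.

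The genes whose levels followed MUL1 most closely were found by Pearson's r over the 9 arrays, between each of the other tested genes and MUL1. Since the diets separate MUL1 so widely, r here mostly ranks how cleanly a gene separates the same 6 and 3 animals, and it is given as a description. Of 27924 other tested probes, 51 had r of at least 0.95, of which 15 had a gene name, and 45 had r of at most -0.95, of which 7 had a gene name. The 5 genes most like MUL1 were PDXK, the kinase that makes active vitamin B6 (r = 0.973), SLC25A6, an ADP/ATP carrier of the inner mitochondrial membrane (r = 0.973), the stress kinase OXSR1 (r = 0.968), AP3S2, a subunit of a vesicle adaptor (r = 0.965), and IMP3, a protein of ribosome assembly (r = 0.961). With quantile normalisation r was 0.969 for PDXK, 0.979 for SLC25A6 and 0.967 for AP3S2, and 0.855 for OXSR1 and 0.836 for IMP3.

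SLC25A6 was 6.25 ± 0.17 (SD, n = 6) in HFHSD and 7.64 ± 0.17 (SD, n = 3) in CD, a difference of -1.39 (SE 0.18), and PDXK differed by -1.06 (SE 0.17). OXSR1, AP3S2 and IMP3 followed MUL1 with differences of only -0.32, -0.34 and -0.40, and the second probe of OXSR1 went the other way, at 0.81. The 5 genes most opposite to MUL1 were CAT, the catalase (r = -0.979), KCNN3, a potassium channel (r = -0.967), MYOC, a secreted glycoprotein (r = -0.957), METTL11B, a methyltransferase (r = -0.953), and the GTPase GPN3 (r = -0.952). Their differences were 0.80 for CAT, 1.43 for KCNN3, 2.36 for MYOC, 1.86 for METTL11B and 0.64 for GPN3. With normexp correction and percentile scaling they were 1.31 for CAT, 0.49 for KCNN3 and 0.35 for METTL11B, and PDXK, SLC25A6 and AP3S2 differed by -0.65, -0.92 and -0.063. KCNN3 and METTL11B passed the background call on 2 of the 3 CD arrays, and that call had its highest floor on CD 1. Each of these 10 genes separated the groups without overlap, as did 13.1% of all tested genes. Picking genes by r with MUL1 favours such a split, so it adds no support. Their differences were smaller than that of MUL1, which was itself chosen as the largest among named genes.

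**Figure D4:**
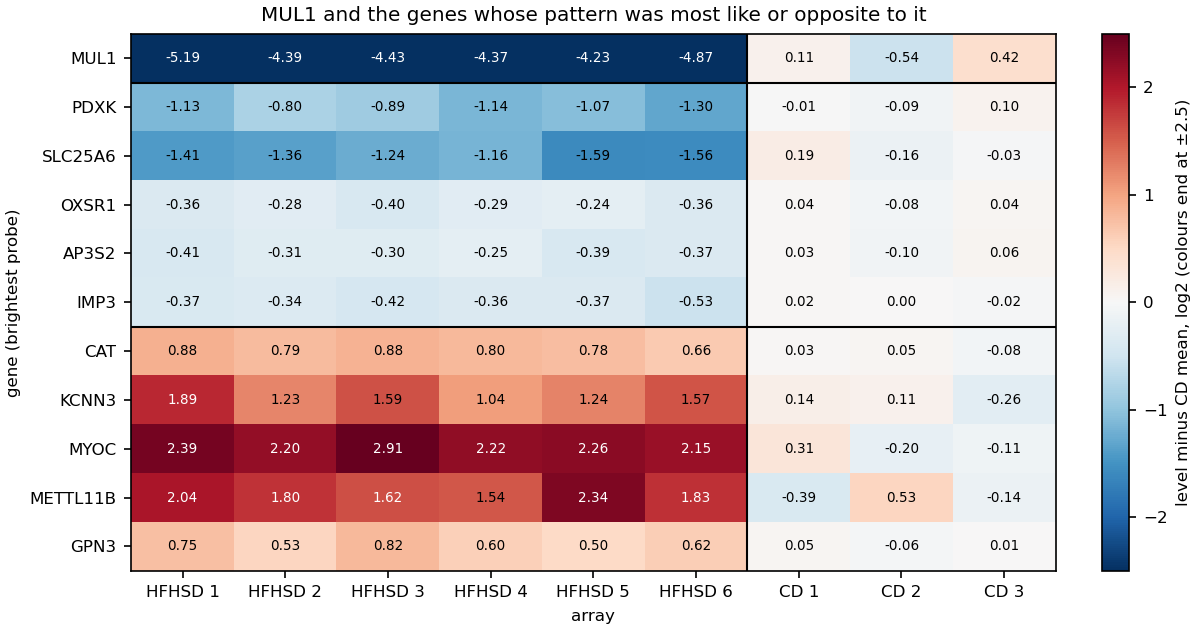
Level minus the CD mean (log2) on each array for MUL1, the 5 genes most like it and the 5 most opposite to it by Pearson's r over 9 arrays, HFHSD arrays left of the line and CD arrays right of it. MUL1 is the only gene whose HFHSD arrays all pass the end of the colour scale.

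Within the groups the order of animals was a different matter. After each group's mean was subtracted, the genes most like MUL1 were FABP1, a fatty acid binding protein of liver and gut (r = 0.907), ACP5, the acid phosphatase of osteoclasts and macrophages (r = 0.894), and TBRG4, a mitochondrial RNA-binding protein (r = 0.869). The most opposite were the DNA primase subunit PRIM1 (r = -0.969), the phosphodiesterase PDE3A (r = -0.895) and the oxytocin receptor OXTR (r = -0.886). None of these 6 was among the 10 genes picked on the levels themselves. MUL1 itself deviated from its group means by under 1 log2 unit on each of the 9 arrays. OXTR ranged more widely, from -2.73 to 0.48 in HFHSD and from -3.03 to -0.15 in CD. FABP1 passed the background call on 4 arrays of HFHSD and 1 of CD.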

How the data were processed

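Each deposited scanner file gives a linear intensity for every spot of 1 array, made with Agilent Feature Extraction 10.7.3.1 per the file headers. That software subtracts background and removes spatial trends inside an array, and it does no scaling between arrays. The authors' series-wide value table repeats these intensity values, with 0 of 45220 spots differing on each array; its values are linear and not centred, and its medians ran from 13.0 on CD 1 to 40.0 on HFHSD 6.

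Control spots and outlier spots were left out, spots of a probe were averaged on the log2 scale, and each array's 75th percentile was subtracted. Probes were tested if well above background on at least 3 arrays (27925 of 43603; 22 were dropped as outliers). Accessions were matched without versions to RefSeq genes of Sscrofa11.1, for names and gene order only, which named 6884 probes. A gene is represented by its brightest probe. limma 3.58.1 in R 4.3.3 (lmFit, eBayes) compared the diets over all 9 arrays without covariates, and was checked on simulated data. Each array is a separate animal. Replicate numbers only name arrays. The number of arrays limits the precision.

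MUL1, the 12 lists, the marker lists and a panel of 22 genes were chosen with earlier results of these data known. Named genes are MUL1, measured panel genes, and from each list any gene that passed and the 3 tested genes of smallest p (fewer where fewer were tested). They also include the 3 nearest measured genes on each side of MUL1, and the 5 (levels) or 3 (deviations) most like and most opposite genes. Some others were named after their values were seen (NR4A3, OPTN, UBB, VDAC1, VDAC3, TFAM, ACTA1, ACTA2, CIDEA, PLIN1, ADIPOQ, SCD, GPD1, FCGR3A, ALB, PNPLA3 and the unnamed probes). A few genes that this rule names are not reported here by name or value. Alternatives were other scalings, normexp correction (offset 50, on the median signal, as the files hold no mean signal), other filters, slide as a block, array weights, another prior, another threshold, averaging over a gene's probes, the deposited table, and leaving out each array.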

Additional observations from a re-analysis of the deposited data

Results flagged for a closer look

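Of 60 named genes examined in the HFHSD group, 3 had an array whose gap to its neighbour was over 0.625 of the group's range. Chance alone gives about 1 in 20 groups, so this count is no more than chance would give. The MUL1 levels were not among the 3. HSPD1, a mitochondrial chaperone, stood apart on HFHSD 1 at a level of 3.22. MYOC stood apart on HFHSD 3 at 5. OXTR stood apart on HFHSD 1 at 0.48.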

How the results depend on the processing

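MUL1 was lower in HFHSD under all 22 alternatives, from -4.85 without CD 2 to -3.13 with normexp and percentile scaling. With normexp and quantile normalisation it was -3.23, and both of these add 50 units to every spot. MUL1 was picked for this difference, so the shared sign adds no support. The gap between its groups was 3.69, so leaving out an array or splitting by slide could not turn the sign. The other filters, the other prior and the deposited table left the difference at -4.58, since they do not alter its levels. Leaving out 1 array gave -4.85 to -4.37. The probes passing, 346 (195 higher, 151 lower), numbered 88 (63 higher, 25 lower) with normexp and percentile scaling, which moved the median of all tested probes to -0.17 against -0.025, and 853 (407 higher, 446 lower) with normexp and quantile normalisation. They numbered 66 with no filter on dim probes, 735 (280 higher, 455 lower) with probes above background on all arrays, 84 with slide as a fixed block, 681 with slide as a random block, 1204 with array weights, 616 with another prior and 1212 at a threshold of 0.1. Leaving out 1 array gave 25 to 324. The count was 99 when HFHSD 2 was dropped, 75 for HFHSD 3, 159 for HFHSD 5 and 93 for HFHSD 6. It was 32 when CD 1 was dropped, 87 for CD 2 and 25 for CD 3. Of the pathway genes, 1 (MSTN) passed at a threshold of 0.1 and 0 under every other alternative; of the neighbours, 0 passed under any. Of the 16 genes most like or opposite to MUL1, 9 were picked again with quantile normalisation, and 0 were shared between the levels and the deviations. No paired analysis was possible because each array is a separate animal and belongs to a single diet group.

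The cause of the following sign changes was not tested. With normexp and percentile scaling the differences were FOXO3 0.027, BCL2L13 0.0097, FUNDC2 0.29, ATG4D 0.20, SUMO2 0.16, UBE2L3 0.20, TMEM173 -0.077, SMAD2 -0.13, HSPE1 0.10, IRF3 0.0049, SDHB 0.092, CAPZB 0.31, DDOST 0.30, CDC42 0.22, OXSR1 0.019, IMP3 0.0090, FABP1 -0.23, PRIM1 -0.17 and PDE3A -0.13. Without a change of sign, that setting gave over 1.5 times another size for MTX1 (-0.27), TOMM20 (-0.19), TRAP1 (-0.28), HSPD1 (-0.072), UBE2J1 (-0.0029), LAMP2 (-0.34), KLF15 (-0.73), AKT1 (-0.023), MAVS (0.19), RNF5 (0.93), XIAP (0.55), PRKAA2 (0.90) and TBRG4 (-0.32), among others. With quantile normalisation the differences were CAPZB 0.055, DDOST 0.049 and PRIM1 -0.036, and with normexp and quantile normalisation RHOT2 0.027 and CAPZB 0.022. With the percentile over probes above background on all arrays they were HIF1A 0.00044, RHOT2 0.021, CAPZB 0.058 and DDOST 0.039. With slide as a fixed block they were HIF1A 0.43, XIAP -0.025, AKR7A2 -0.074 and DDOST 0.023, and as a random block HIF1A 0.14 and AKR7A2 -0.016. With array weights they were RHOT2 0.012, CAPZB 0.069, DDOST 0.0030 and PRIM1 -0.028, and with the mean of a gene's probes HIF1A 0.11 and OXSR1 0.24. Leaving out 1 array gave CAPZB -0.16 to 0.12, PRIM1 -0.22 to 0.29, AKR7A2 -0.21 to 0.38, HIF1A -0.29 to 0.16, DDOST -0.11 to 0.015, RHOT2 -0.13 to 0.055, PDE3A -0.043 to 0.53 and OXTR -1.2 to 0.22.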
